A study of Mus musculus with 3 samples.

Results

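WR19L is an established mouse T-lymphoma line derived from BALB/c mice. The data described here are the expression profile of its parental cells, measured on 1 of the 3 Affymetrix 3' microarrays of the series. By their genotype label the cells were parental, and they received no treatment and were grown in RPMI1640 medium with fetal calf serum and antibiotics. A description label of the array also reads W3, whose meaning was not given. Whether the cells carried an engineered change is therefore not known here. The other 2 arrays held flippase-deficient derivatives of the line (DKO cells) with human ATP11A or its Q84E mutant, and were not compared here. The array gave a signal for each of 45101 probe sets, of which the 34958 that carried exactly 1 gene symbol were used. They represent 18194 genes. Each signal was ranked within the array as its percentile among all probe sets, and a gene was represented by its brightest probe set. The profile is that of 1 RNA sample of 1 cell line, so no value has a replicate error and no test was made.

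A T cell recognises antigen through a receptor made of paired variable chains held by the CD3 chains and the zeta chain (Cd247), which pass the signal to the kinases Lck and Zap70 and to the scaffold Lat. During thymic development, precursors rearrange their receptor genes with the Rag recombinase, then carry both coreceptors, CD4 and CD8, and finally keep 1 of them, under transcription factors such as Bcl11b, Gata3, the E proteins and the Runx family. The plasma membrane of such cells is asymmetric: flippases of the P4-ATPase family keep phosphatidylserine and phosphatidylethanolamine on the inner leaflet, scramblases collapse that asymmetry, and sphingomyelin lies mostly on the outer leaflet.

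Levels are given in 3 classes. A gene is called high where its brightest probe set lay at or above the 75th percentile (a signal of 369), intermediate between the 50th (50.3) and the 75th, and low under the 50th. Of all genes 36.3% were high, 58.2% lay at or above the 50th percentile and 15.4% at or above the 90th (a signal of 1774). The median gene lay at percentile 59.1. As a floor for these classes, 107 genes that blood cells are not known to use were read in the same way: 36 genes restricted to other tissues, 39 olfactory receptors and 32 vomeronasal receptors. Their median percentile was 31.1, 15 of them (14.0%) reached the 50th percentile, and 1, the keratin gene Krt10 at percentile 77.1, reached the 75th. A signal under the 50th percentile was therefore of the size that such genes gave. Of these 107 genes 83 had 1 probe set, against 9182 of all 18194 genes. The floor is therefore less well measured for genes with many probe sets.

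A difference in rank within a class was not read as a difference in transcript level, because probe sets of the same gene differed widely. Over the 9012 genes with several probe sets, the SD of 1 probe set was 2.05 on the log2 scale, or 17.8 percentile points. It was narrower, 0.87 on the log2 scale and 3.26 percentile points, where a pair of probe sets averaged at or above the 90th percentile. Choosing pairs by their own average leaves out pairs that differ widely, so part of this narrowness is built in. Of the 1955 genes with several probe sets and the brightest at or above the 90th percentile, 498 (25.5%) also had a probe set under the 50th. Of the 4461 high genes with several probe sets, 1356 (30.4%) also had a probe set under the 50th percentile, so a low signal from a lone probe set does not show that a transcript was missing. Where probe sets disagree, the number that was high is given. The rule of the brightest probe set also favours genes with many of them: 23.4% of genes with 1 probe set were high and 62.5% of those with 4 or more. With the median probe set of each gene 23.5% of all genes were high. Of the 40 gene lists described, 23 had a larger share of high genes than all genes, and 21 of these also did so by the median probe set. The spiked hybridisation controls rose in their intended order, from 525 to 837 for bioB, 1852 to 2659 for bioC, 4084 to 9529 for bioD and 19148 to 31672 for cre. The ratio of the 3' to the 5' control probe set was 1.24 for Actb, 0.721 for Gapdh and 2.74 for Tfrc.

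The 15 brightest genes were Eef1a1, Rps29, Rpl38, Hspa8, Rps10, Rpl7a, Rplp2, Lgals1, Rpsa, Pabpc1, Tpt1, Actb, Rpl4, Rps14 and Gapdh. Most of them encode parts of the ribosome or factors of translation. Their signals ran from 35016 for Gapdh to 40447 for Eef1a1, the elongation factor that brings aminoacyl-tRNA to the ribosome. Lgals1, which encodes the secreted lectin galectin-1, had a signal of 36511. Of 48 ribosomal protein genes measured, 43 were high and their median percentile was 99.7.

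The label of the line was checked against 5 markers of T lymphoma, and 3 of them were high. Ptprc, the leukocyte phosphatase CD45, had probe sets at signals of 354 and 22592, percentiles 74.6 and 99.5. Ikzf1, the lymphoid transcription factor Ikaros, had probe sets at 1175 and 9333, percentiles 86.6 and 98.1. Cd3d, a chain of CD3, had its lone probe set at 6898, percentile 97.2. The other 2 markers were not high. The lone probe set of Cd3e, another CD3 chain, gave a signal of 6.21 (percentile 14.9), which is inside the range of the genes of other tissues. The 5 probe sets of Cd8a, the alpha chain of the CD8 coreceptor, gave 3.28, 29.8, 36.6, 38.2 and 83.7, so that 1 was intermediate and 4 were low.

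**Figure D1:**
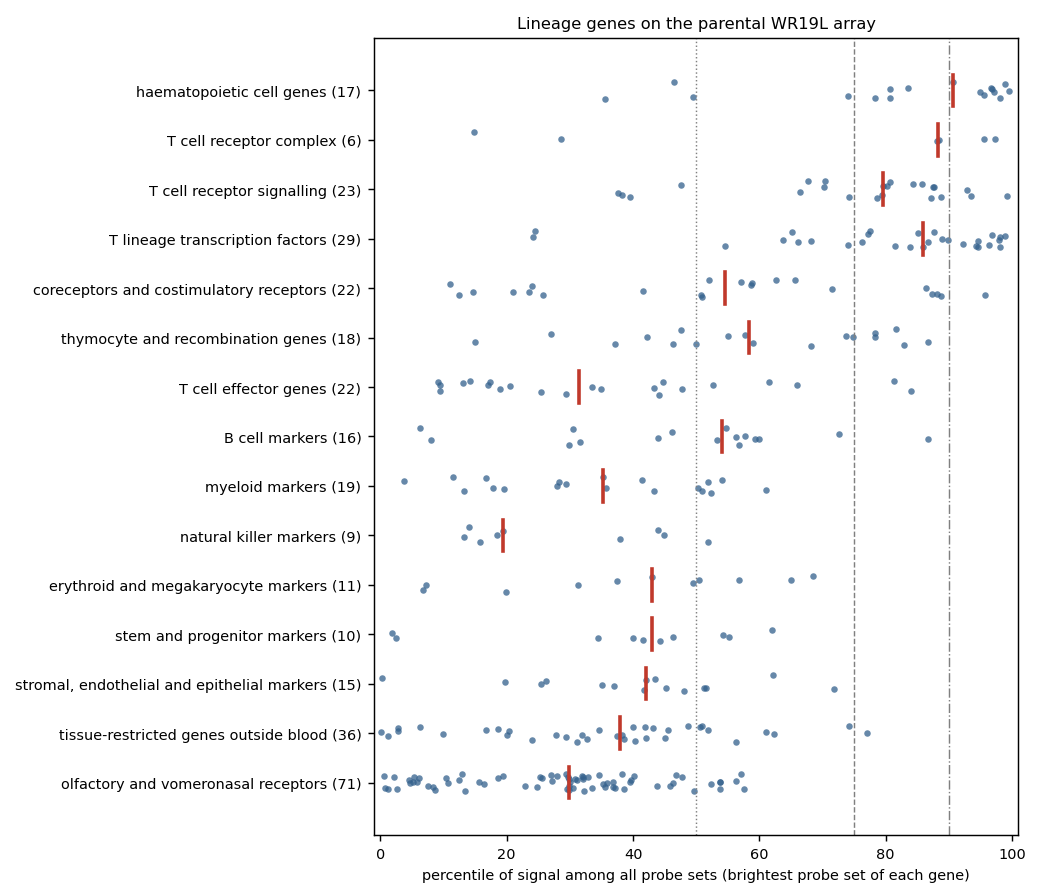
Percentile of signal of each gene in 15 lists on the parental array (points, 1 gene each, by its brightest probe set), with the median of each list as a red bar and the 50th, 75th and 90th percentiles as vertical lines; the number of genes is in parentheses. The haematopoietic, T cell receptor, receptor signalling and T lineage factor lists have medians of 79.5 to 90.7, and the lists of other lineages have medians of 19.5 to 54.0.

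Genes that mark blood cells in general were mostly high. Of 17 measured, 13 were high and 9 lay at or above the 90th percentile, with a median percentile of 90.7 against 59.1 for all genes. Beside Ptprc and Ikzf1 the highest was Coro1a, an actin-binding protein of leukocytes, with 2 of 3 probe sets high and a signal of 13094. Rac2, a small GTPase of blood cells, stood at percentile 97.2 and Lcp1, the leukocyte plastin, at 96.8. The other 4 were Cd53, a tetraspanin of leukocytes, which was intermediate (74.0), and the low members Cytip (49.4), Selplg, which encodes the selectin ligand PSGL-1 (46.5), and Cd52 (35.6).

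Of the 6 measured genes of the T cell receptor complex 4 were high, and the median of the list was at percentile 88.2. Cd3g, the gamma chain of CD3, had a signal of 4474 (percentile 95.6). Cd247, the zeta chain, had probe sets at 57.6, 104, 807 and 1391, 2 of them high. Trat1, an adaptor of the receptor complex, had both probe sets high, up to percentile 88.4. Cd3e and Tcra, a probe set of the alpha locus (percentile 28.7), were the low members. Among probe sets named for variable segments, Trbv1 had signals of 267 and 14678, and Trav9d-3, of the alpha locus, had 8.57, 17.4, 1970, 2557 and 3149, 3 of the 5 high. The alpha locus was thus low by the Tcra probe set and high by these 3. Probe sets of a less specific design may also read related segments, so no segment is assigned to the cells.

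Cd3d and Cd3g are divergent neighbours on chromosome 9, with annotated starts 1355 bases apart. They are shown here because both were high while their 250 bases before the start hold few CG dinucleotides, unlike those of high genes of general use. RefSeq sequences of the GRCm38.p6 build are given 5' to 3' on the strand of the gene, ending at the base before the annotated start, with each CG in capitals. Cd3d (chr9:44981536-44981785, plus strand, signal 6898) and Cd3g (chr9:44980432-44980681, minus strand, signal 4474) hold 0 and 4 CG. Sox4 (chr13:28953700-28953949, minus strand), a T lineage factor described below, holds 11. Pcna (chr2:132253181-132253430, minus strand), the sliding clamp of DNA replication, and Mdh2 (chr5:135778399-135778648, plus strand), a citric acid cycle enzyme, hold 22 and 23. Alb (chr5:90460620-90460869, plus strand), a liver gene that was low here (signal 25.3), holds 2.
Cd3d: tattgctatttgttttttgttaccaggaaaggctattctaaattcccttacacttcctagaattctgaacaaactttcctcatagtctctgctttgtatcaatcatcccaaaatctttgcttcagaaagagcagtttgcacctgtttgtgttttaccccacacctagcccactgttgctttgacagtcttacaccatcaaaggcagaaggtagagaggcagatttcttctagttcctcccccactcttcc
Cd3g: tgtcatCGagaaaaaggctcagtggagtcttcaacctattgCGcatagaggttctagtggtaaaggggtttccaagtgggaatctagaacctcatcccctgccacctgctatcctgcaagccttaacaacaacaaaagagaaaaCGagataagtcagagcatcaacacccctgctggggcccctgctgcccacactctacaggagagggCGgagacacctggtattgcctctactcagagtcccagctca
Sox4: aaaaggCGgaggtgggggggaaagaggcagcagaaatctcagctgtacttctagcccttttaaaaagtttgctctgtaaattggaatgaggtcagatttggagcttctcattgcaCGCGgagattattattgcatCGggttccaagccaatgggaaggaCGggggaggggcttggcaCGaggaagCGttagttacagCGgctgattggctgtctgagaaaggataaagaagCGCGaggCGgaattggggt
Pcna: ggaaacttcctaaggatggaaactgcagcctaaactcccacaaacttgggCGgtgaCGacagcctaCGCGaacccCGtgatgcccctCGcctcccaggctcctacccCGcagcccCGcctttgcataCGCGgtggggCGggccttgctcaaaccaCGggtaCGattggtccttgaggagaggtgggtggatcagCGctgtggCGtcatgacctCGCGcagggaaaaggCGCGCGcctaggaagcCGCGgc
Mdh2: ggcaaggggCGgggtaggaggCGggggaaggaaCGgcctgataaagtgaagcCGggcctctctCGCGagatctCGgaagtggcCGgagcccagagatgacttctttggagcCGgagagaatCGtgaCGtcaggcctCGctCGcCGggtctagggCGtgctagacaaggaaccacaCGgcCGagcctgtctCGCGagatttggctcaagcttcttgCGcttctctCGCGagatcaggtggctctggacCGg
Alb: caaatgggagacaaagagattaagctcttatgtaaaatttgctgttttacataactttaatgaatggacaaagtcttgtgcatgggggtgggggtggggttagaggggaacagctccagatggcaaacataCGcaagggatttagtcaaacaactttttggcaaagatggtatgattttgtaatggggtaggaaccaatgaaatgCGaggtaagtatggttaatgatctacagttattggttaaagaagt

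The same contrast was seen over the lists. In the window of 250 bases before to 50 after the start, the median number of CG was 23 in the 2321 matched genes at or above the 90th percentile and 22 in the 3158 between the 75th and the 90th, against 7 over the 27025 genes of the promoter table. Of the genes analysed on the array 14369 matched this table. It also holds genes that were not analysed here, so its values do not stand for dimmer genes of the array. High members of the T cell receptor complex had a median of 2 CG (4 of 4 matched), those of receptor signalling 8 (13 of 14) and those of the haematopoietic list 8 (11 of 13). High members of the T lineage factor list had a median of 23 (17 of 21), of the cell cycle list 25 (20 of 25) and of the citric acid cycle list 21 (21 of 24). The high members of the receptor complex and its signalling list thus had fewer CG in this window than those of the citric acid cycle list. These lists were not matched for level. At or above the 90th percentile lay 2 of 6 genes of the complex and 3 of 23 signalling genes, against 22 of 25 of the citric acid cycle. The bright classes had a match of 83.0% and 82.9%, but under the 75th percentile fewer than 80% of genes were matched, so that check is void there and no value is given. The letters TATAAA, read on the strand of the gene between 45 and 16 bases before the start, occurred in 1.03% of the genes at or above the 90th percentile, in 0.823% of those from the 75th to the 90th and in 2.57% of the table. The letters CACGTG (the same on both strands), a form of the E-box to which Myc and Max are known to bind, occurred in 14.3% and 12.3% of those classes and in 8.09% of the table. The classes and the table were not matched for base content, and CACGTG itself holds a CG, which was more frequent in the bright classes. These matches describe letters in a window and not binding.

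**Figure D2:**
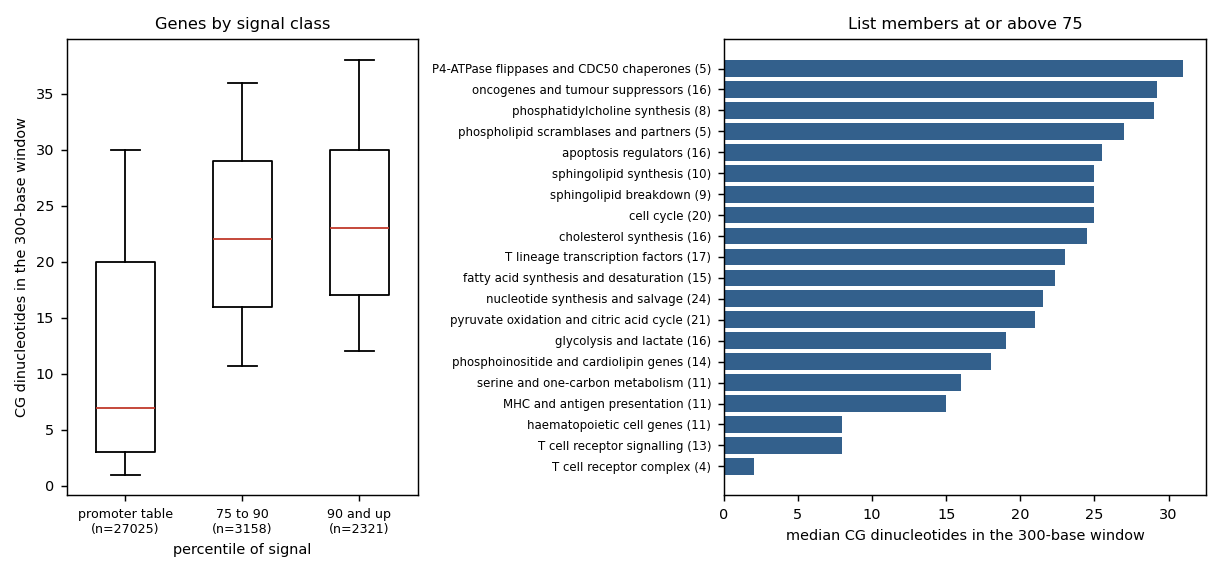
CG dinucleotides in the 300-base RefSeq window of each gene (mean over its starts): on the left, boxes give the quartiles, the red line the median and the whiskers the 10th and 90th percentiles for all genes of the promoter table and for 2 signal classes; on the right, bars give the median over the high members of each list with at least 4 members and 80% matched (number in parentheses). The medians on the left are 7, 22 and 23, and the shortest bars on the right are the T cell receptor complex at 2 and receptor signalling and haematopoietic genes at 8.

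Genes that pass the receptor signal were high in 14 of 23 cases, with a median percentile of 79.5. Lat, the membrane scaffold on which the signal is assembled, was the brightest at a signal of 16203 (percentile 99.1). Zap70, the kinase that binds the phosphorylated CD3 and zeta chains, had all 3 probe sets high, at 661, 770 and 1499. Its partner scaffold Lcp2, known as SLP-76, had probe sets at 301 and 2875, 1 of them high. Csk, the kinase that restrains Src-family kinases, stood at percentile 92.9 and Ptpn6, the phosphatase SHP-1, at 85.7 with both probe sets high. All 4 probe sets of Bcl10, an adaptor towards NF-kappaB, were high. Rasgrp1, a Ras activator, and Prkcq, protein kinase C theta, were intermediate, both at percentile 70.3. The adaptors Sla (39.5), Sh2d2a (38.3) and Fyb (37.6) were low.

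Among 22 coreceptors and costimulatory receptors 5 were high, and the list's median percentile, 54.5, was below that of all genes. Thy1, the pan-T-cell surface glycoprotein, had a signal of 4535 (percentile 95.7). Cd2, an adhesion receptor, had 1518, Pdcd1, the inhibitory receptor PD-1, 1288 and Ly9, of the SLAM family, 1154. The fifth was Cd247, which the list also holds. The chains of CD8 were intermediate at their brightest, Cd8b1 at a signal of 145 and Cd8a at 83.7, and both probe sets of Cd4 were low, at 3.11 and 13.3. Cd28, the main costimulatory receptor, was intermediate (62.6). Cd5 (41.5), Ctla4 (21.0), Lag3 (14.7) and Cd27 (12.4) were low, and so was Cd48 with a signal of 4.46. The surface profile by transcript therefore held Thy1, Cd2, the CD3 gamma and delta chains and CD45 in the high class, with neither coreceptor in it.

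**Figure D3:**
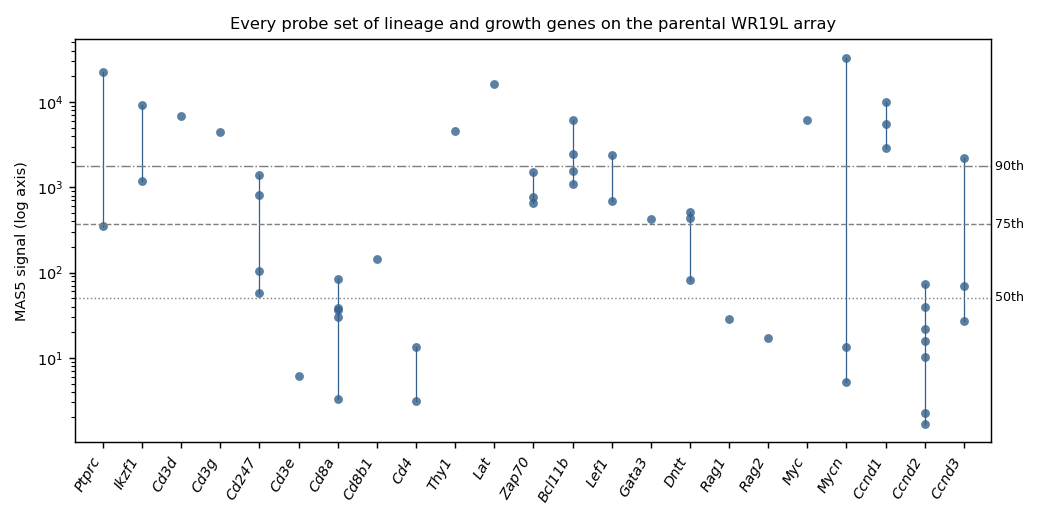
Signal of every probe set with exactly 1 symbol (points, log axis) for 23 lineage and growth genes on the parental array, joined by a line within a gene, with the signals at the 50th, 75th and 90th percentiles as horizontal lines. All probe sets of Ikzf1, Zap70, Bcl11b, Lef1 and Ccnd1 lie above the 75th percentile, those of Cd3e, Cd8a, Cd4, Rag1, Rag2 and Ccnd2 lie below it, and Mycn has 1 probe set at 33009 and 2 below the 50th.

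Of 18 genes of thymocyte development and receptor gene recombination 5 were high, a share of 27.8% beside 36.3% for all genes, with a median percentile of 58.4 near the 59.1 of all genes. Rag1 (signal 28.5) and Rag2 (16.9), which encode the recombinase, and Ptcra (6.28), the surrogate alpha chain of the pre-T cell receptor, were low. Dntt, the terminal transferase that adds bases at the joins, had probe sets at 80.8, 440 and 508, 2 of them high. The repair genes that complete the joins were high for Prkdc (81.6) and both probe sets of Xrcc4 (up to 78.3) and intermediate for Lig4 (73.7), and they also serve general break repair. Cd44, an adhesion receptor, was high in 3 of 4 probe sets and Cd1d1, which presents lipids to natural killer T cells, in 2 of 2. Il7r, the receptor of the survival cytokine IL-7, was intermediate (68.2), as was the brighter of the 2 probe sets of Notch1 (57.8).

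Effector products of mature T cells were mostly low. Of 22 genes, 2 were high, 17 were low and the median percentile was 31.5, next to 31.1 for the genes of other tissues. Gzma, a granzyme, was high at a signal of 891, and it was the high member among 10 granzyme genes. Tgfb1, a suppressive cytokine, was the other high gene, with 1 of 2 probe sets (81.3). Prf1, which encodes perforin, was intermediate at 52.7. Il2 (29.4), Gzmb (13.2) and Ifng (9.15) were low.

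The transcription factors of the T lineage were high in 21 of 29 cases, with a median percentile of 85.9. All probe sets were high for Bcl11b (1080 to 6148), the factor that commits precursors to the T lineage, for Myb (1230, 3476 and 5464), and for Lef1 (695 and 2404), an effector of Wnt signalling. Sox4, a factor of early T cells, had its brightest probe set at 13094 with 5 of 8 high. The E proteins Tcf12 (HEB, 2 of 5 probe sets high, up to 8989) and Tcf3 (E2A, 2 of 3, up to 3595) were high, and so was their inhibitor Id3 (3383). Gfi1, a repressor, stood at 94.6 and Cbfb, the partner of the Runx proteins, at 98.0. Of the Runx genes, Runx3, which acts in CD8 cells, was high in 1 of 2 probe sets (87.6), and all 6 probe sets of Runx1 lay under the 75th percentile (up to 63.7). Gata3 was high at 76.3, just above the limit, with a signal of 420. Satb1, a chromatin organiser of thymocytes, had 0 of 5 probe sets high. Zbtb7b, the CD4 lineage factor ThPOK (24.2), and Ikzf2, or Helios (24.5), were low.

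Factors of effector and helper subsets were high in 3 of 13 cases, with a median percentile of 52.1. These were Maf (3 of 6 probe sets, up to 87.6), Batf (85.9) and Bcl6 (1 of 2, up to 79.8), of which Maf and Bcl6 are known from follicular helper cells. Foxp3, the regulatory T cell factor, was intermediate at 54.2. Eomes (18.4), Tbx21 (14.0) and Stat4 (12.5), of type 1 and cytotoxic cells, were low. Of 22 factors of other lineages or of leukaemia 2 were high, Cebpb (both probe sets, up to 89.3) and Lmo2 (77.0), and the median percentile was 42.4. Tal1 stood at 11.7, Spi1, the myeloid factor PU.1, at 56.4, and none of 33 Hox genes was high.

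Markers of other cell types lay outside the high class with 1 exception in 6 lists. Of 16 B cell markers, the high one was Pou2af1, a coactivator of octamer factors (signal 1192, percentile 86.7). The 11 probe sets of Ighm, the mu heavy chain, had 0 high, and the brightest was at 72.6. The B cell genes Cd79b (signal 3.40) and Cd79a (38.4) were low and Pax5 was intermediate (70.9). None was high among 19 myeloid markers (median percentile 35.2), 9 natural killer markers (19.5), 11 erythroid and megakaryocyte markers (42.9), 10 stem and progenitor markers (42.9) and 15 stromal, endothelial and epithelial markers (42.1). The highest of these were Pecam1 (71.9), Itga2b (68.5) and Epor (65.0), all intermediate. All 4 measured genes of X inactivation and the Y chromosome were low, at percentiles of 39.6 for Xist, 37.7 for Kdm5d, 33.9 for Uty and 17.8 for Eif2s3y.

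Homing receptors and integrins were high in 11 of 25 cases, with a median percentile of 70.7. Cxcr4, the receptor of CXCL12, was the highest, at a signal of 4940. Itgb2 (2662) and Itgal (1935, 1 of 2 probe sets high), the chains of LFA-1, were both high. Ccr9, the gut and thymus homing receptor, was high in 1 of 5 probe sets (83.1) and Cxcr6 in 1 of 2 (79.2). Ccr7, a receptor of lymph node entry, and S1pr1, a receptor of exit, were low (8.53 and 42.2). All 5 probe sets of Itga4 were low.

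Cytokine receptors and Janus kinases were near the background share, with 9 of 26 high, and none reached the 90th percentile. The highest were Jak1 (84.8), Il17ra (83.4) and Tgfbr1 (82.9). Il2ra was intermediate (55.0) and Il2rb low (44.0). Of 15 receptors of the TNF family 2 were high, the death receptor Fas (signal 661, percentile 80.9) and Tnfrsf1a (80.5). The Fas signal is that of the cells also labelled W3, and whether they carried an engineered change is not known here. Downstream of Fas, the adaptor Fadd was high in 1 of 2 probe sets (77.9) and the initiator caspase Casp8 stood at 93.2. Of 23 apoptosis regulators 16 were high, with a median percentile of 81.6. Cycs, or cytochrome c, stood at 99.2. The antiapoptotic genes Bcl2 (5 of 5 probe sets, 881 to 7031) and Mcl1 (6 of 6, 1042 to 4698) were high throughout, and Bcl2l1 was intermediate (0 of 4 high, up to 74.1). Of the BH3-only genes, Bid (94.2) and Bcl2l11 (3 of 5 probe sets, up to 85.3) were high, Bbc3 was intermediate (61.7) and Pmaip1 low (43.0).

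Genes of antigen presentation split by class. Of 18 measured, 13 were high, and the high ones were those of class I, among them B2m (both probe sets, up to 98.3), H2-K1 (3 of 4, up to 91.1), the transporter genes Tap2 (87.0) and Tap1 (1 of 4, 75.3), and the chaperones Canx, Pdia3 and Calr (98.9 to 99.1). The class II genes H2-Aa (39.3), H2-Eb1 (33.9) and H2-Ab1 (16.2) and their activator Ciita (38.1) were low in every probe set. Class I genes are close copies of each other, so probe sets of H2-D1, 2 of 9 high, may also read other class I genes.

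Genes of proliferation were among the highest lists. Of 27 cell cycle genes 25 were high and 19 lay at or above the 90th percentile, with a median of 94.9. Pcna had a signal of 28213. The helicase subunits Mcm7 (4 of 4 probe sets high, up to 18492) and Mcm5 (2 of 3, up to 14186) followed, and Mki67, the proliferation marker, stood at 97.5. The D-type cyclins differed: all 3 probe sets of Ccnd1 were high (2921, 5495 and 10019), Ccnd3 was high in 1 of 3 (27.2, 68.9 and 2175), and Ccnd2 in 0 of 7 (up to 72.7). Lymphocytes are known to use mainly Ccnd2 and Ccnd3. Cdkn1a, the inhibitor p21, was intermediate (51.7), and Cdkn2a, the locus of p16 and p19ARF, was high at 1208.

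Of 21 oncogenes and tumour suppressors 18 were high, with a median percentile of 87.6 and none under the 50th. Myc had a signal of 6131 (percentile 96.8) and its partner Max 1631 (89.4), each from a lone probe set. Mycn had a probe set at 33009, percentile 99.9, but its other 2 gave 13.2 and 5.27, so its level rests on 1 of 3. The chromatin genes Dnmt1 (3 of 3 probe sets, up to 6289), Ezh2 (5405) and Bmi1 (2 of 2, up to 4767) were high. Nras was high in 3 of 3 probe sets. Of the Pim kinases, Pim3 was high in 2 of 3 probe sets (94.5) and Pim2 in its lone one (77.6), and Pim1 was intermediate in its brightest (70.4).

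The metabolic lists stood above the background share of 36.3%. Of 21 genes of glycolysis and lactate handling 17 were high (median percentile 94.2), led by Gapdh (3 of 3 probe sets), Ldha, lactate dehydrogenase A (26710), and Pgk1 (3 of 3, up to 18120). The glucose transporters Slc2a1 (3 of 3, 81.9) and Slc2a3 (2 of 4, 94.6) were high. Of the lactate transporters, Slc16a1 was high in 1 of 2 probe sets (99.2) and Slc16a3 low (22.9). Eno2, the neuronal enolase, was low (40.3).

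Pyruvate oxidation and the citric acid cycle were high in 24 of 25 genes, 22 of them at or above the 90th percentile, with a median of 97.0. Mdh2 had a signal of 19610, Idh3a 14357 (3 of 4 probe sets high) and the succinate dehydrogenase subunit Sdhb 13082. The exception was Pcx, pyruvate carboxylase, which refills the cycle: its 5 probe sets lay between 8.98 and 109 and 0 were high. In serine and one-carbon metabolism 11 of 14 genes were high (median 96.4). Psat1 (9837 and 16864) and Phgdh (3 of 4 probe sets, up to 14160), of serine synthesis from a glycolytic intermediate, and Ahcy (12872) led. Gldc (5.37), which cleaves glycine, and the folate enzymes Aldh1l1 (39.3) and Aldh1l2 (3.95) were low.

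Nucleotide synthesis and salvage was high in 27 of 30 genes (median 95.6). Paics, of purine synthesis, and Rrm2, a subunit of ribonucleotide reductase, were high in 3 of 3 probe sets each, up to 15417 and 14505. Tyms, the thymidylate synthase, was the lowest of the list, with 0 of 4 probe sets high (up to 66.2). Amino acid and polyamine genes were high in 16 of 19 cases (median 96.2). Odc1, the entry enzyme of polyamine synthesis, was high in 3 of 3 probe sets (up to 20085), and so were its antizyme Oaz1 (23253) and the spermidine synthase Srm (12569). Asns, the asparagine synthetase, had both probe sets high (8664 and 12429). Slc7a11, the cystine carrier, was intermediate (66.1), and the arginase genes Arg2 (3.93) and Arg1 (1.28) were low.

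In 3 promoters of that list the letters TGATGNAA, the core of the amino acid response element, were found on either strand. They are shown as windows of 30 bases on the strand of the gene, with the match in capitals, from RefSeq of GRCm38.p6. Counted back from the annotated start, the match begins at -102 in Got1 (chr19:43524689-43524718, minus strand, percentile 94.5), at -23 in Asns (chr6:7693214-7693243, minus strand, percentile 98.7) and at -66 in Slc7a11 (chr3:50443661-50443690, minus strand, percentile 66.1). These letters occur in 4.51% of all genes with a RefSeq promoter. Under 80% of the list had a promoter, so no share over its members is given. In 2 other lists searched in the same way, these letters were not particular to amino acid genes. They occurred in 0 of 13 matched genes of serine and one-carbon metabolism and in 2 of 18 of cholesterol synthesis.
Got1: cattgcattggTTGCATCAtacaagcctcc
Asns: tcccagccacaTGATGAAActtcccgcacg
Slc7a11: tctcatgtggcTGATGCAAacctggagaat

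**Figure D4:**
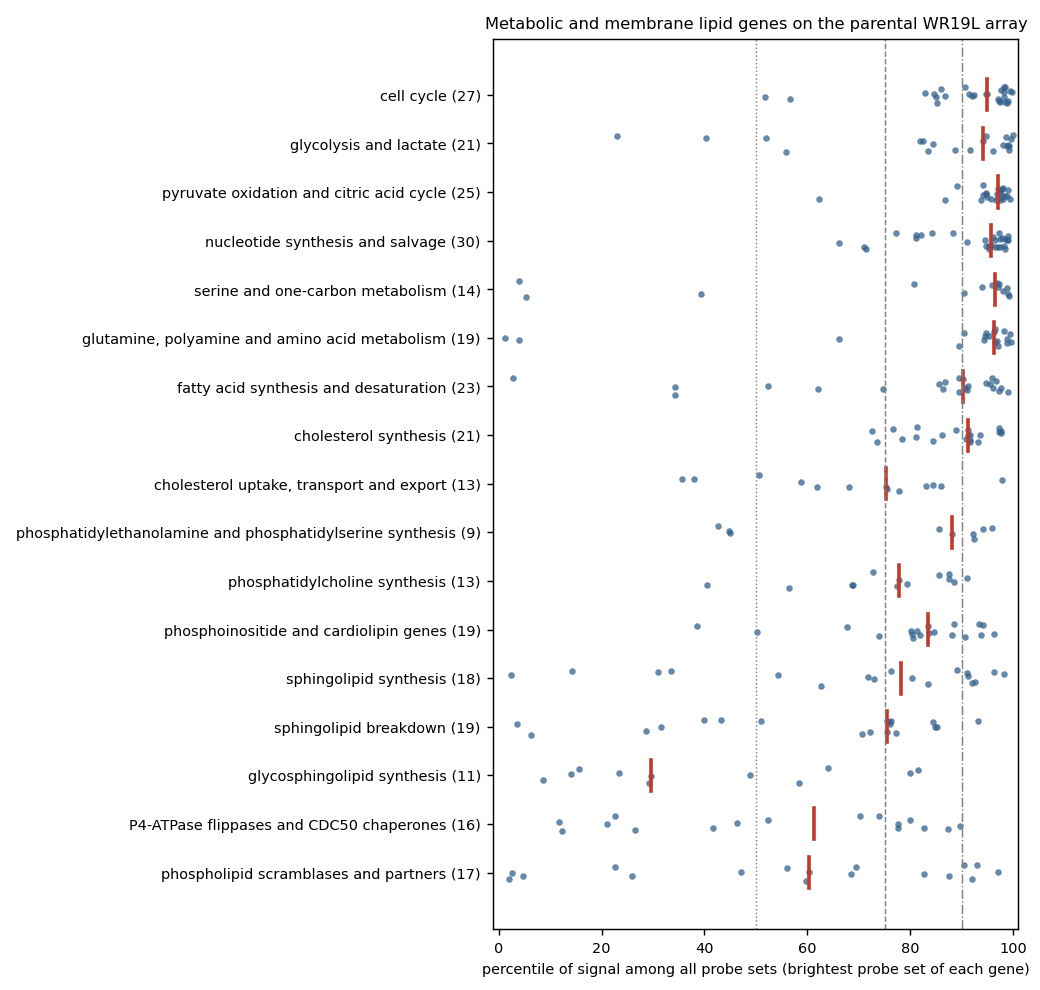
Percentile of signal of each gene in 17 proliferation, metabolic and membrane lipid lists on the parental array (points, 1 gene each, by its brightest probe set), with list medians as red bars and the 50th, 75th and 90th percentiles as vertical lines; the number of genes is in parentheses. The medians lie at 94.2 to 97.0 for the cell cycle and the central metabolic lists, at 60.3 and 61.3 for scramblases and flippases, and at 29.7 for glycosphingolipid synthesis.

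Synthesis of the sterols and fatty acids of membranes was high. Of 21 cholesterol synthesis genes 19 were high and none was low (median 91.2). Idi1 (2 of 2 probe sets, up to 8108), Fdps (1 of 2, 8030), Hmgcs1 (4 of 5, up to 7051) and Sqle (6734) span the pathway from its first committed steps to squalene epoxide. Mvk, the mevalonate kinase, was the lowest, at 72.6 with 0 of 2 probe sets high. The regulators Srebf2 (90.8), Scap (91.5) and Insig1 (88.8) were high. Among 13 genes of cholesterol transport 7 were high, including Npc2 (2 of 4 probe sets, 97.8), and its lysosomal partner Npc1 was intermediate (58.8). Abca1, the exporter, was low in 3 of 3 probe sets (up to 35.6).

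Fatty acid genes were high in 17 of 23 cases (median 90.3). The synthase Fasn had a signal of 6775, and Acly, which supplies its acetyl-CoA, had 3 of 6 probe sets high (up to 8112). The desaturase genes differed: Scd2 had 3 of 3 probe sets high (2046, 3602 and 14150), while both of Scd1 lay under the 75th percentile (26.0 and 56.7). Of the elongases, Elovl5 (96.1) and Elovl6 (91.0) were high, and Elovl4 (34.3) and Elovl2 (2.88), which build very long chains in other tissues, were low.

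The genes of the major phospholipids were high in most cases. For phosphatidylethanolamine and phosphatidylserine, 6 of 9 were high (median 88.1). They included Pisd, the mitochondrial decarboxylase that turns phosphatidylserine into phosphatidylethanolamine (4713), and the synthases Ptdss1 (2 of 3 probe sets, up to 3208) and Ptdss2 (2 of 9, up to 1063). For phosphatidylcholine, 8 of 13 were high (median 77.8), with Cept1, which makes both lipids, at 91.0 and the choline kinases Chkb (87.4) and Chka (77.4). Its rate-setting enzyme Pcyt1a was intermediate, with 0 of 4 probe sets high (up to 72.7). For phosphoinositides and cardiolipin, 15 of 19 were high (median 83.4), with Cdipt and Crls1, the 2 synthases, high in 2 of 2 probe sets each. Pik3cd, the leukocyte kinase subunit, stood at 96.2 on 1 of 6 probe sets.

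Sphingolipid synthesis was high in 10 of 18 genes (median 78.2). The steps that make ceramide were high: Sptssa (9915) and Sptlc1 (1564, 1 of 4 probe sets), parts of the first enzyme, Cers2 (91.0) and Cers5 (1 of 2 probe sets, 96.2), and Degs1 (2 of 2, 92.6), which sets the double bond. Cert1, which carries ceramide to the Golgi, was high in 1 of 4. The sphingomyelin synthases were not high. The 4 probe sets of Sgms1 gave 64.5, 66.2, 74.2 and 113, all intermediate, and both of Sgms2 were low (up to 5.90). Samd8, which makes the ethanolamine analogue, was intermediate (71.7). Toward glycosphingolipids, Ugcg, which adds glucose to ceramide, was high in 3 of 4 probe sets (569, 572 and 595, with the fourth at 4.96) and B4galt5, which adds galactose, in 1 of 2 (81.6). The other 9 of the 11 genes of that list were not high, and St3gal5, which makes the ganglioside GM3, was low (8.70). The median of the list was at percentile 29.7. Of 19 breakdown genes 10 were high (median 75.4), among them Psap (2 of 2, 93.2) and Asah1, acid ceramidase (85.1). The sphingomyelinase Smpd1 was high in 1 of 2 (75.9), at the limit.

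Flippases and their chaperones were high in 6 of 16 genes (median 61.3), a share of 37.5% beside 36.3% for all genes, and none reached the 90th percentile. By the median probe set of each gene 2 of the 16 were high, beside 23.5% of all genes under that setting. Tmem30a, the chaperone CDC50A that most flippases need to leave the endoplasmic reticulum, had probe sets at 57.8, 168, 891, 915 and 1292, of which 3 were high. Atp11a, the mouse gene of the flippase that the series studies, had probe sets at 131 and 478, percentiles 64.5 and 77.6. Atp11b had a lone probe set at 1718 (percentile 89.7). Atp8a1 was high in 2 of 7 probe sets (up to 473), Atp8b2 in 1 of 3 (82.7) and Atp9b in 1 of 3 (79.9). Atp9a (73.9) and Atp8b4 (70.1) were intermediate, and Atp10a (26.5), Atp10d (21.1), Atp10b (11.8), Atp8b1 (22.6) and Tmem30b (12.2) were low. Tmem30b and Tmem30c (46.3), the other chaperones, were both low, and so were all 3 measured members of the Atp10 group, of which Atp10a is known to act on phosphatidylcholine.

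Scramblases and their partners were high in 6 of 17 genes (median 60.3), a share of 35.3%, near the 36.3% of all genes. Ano6, the calcium-activated scramblase TMEM16F, had both probe sets high, at 476 and 1299. Xkr8, the scramblase that caspases activate in apoptosis, had probe sets at 19.9 and 94.0, low and intermediate. Its partners for reaching the plasma membrane, Bsg (6502) and Nptn (1 of 2 probe sets, 2329), were high. The endoplasmic reticulum scramblases Tmem41b (5 of 6 probe sets, up to 2707) and Vmp1 (2 of 2, up to 1908) were high, and Atg9a, of autophagosomes, was intermediate (68.5). All 3 probe sets of Plscr1 were low (up to 2.25).

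**Figure D5:**
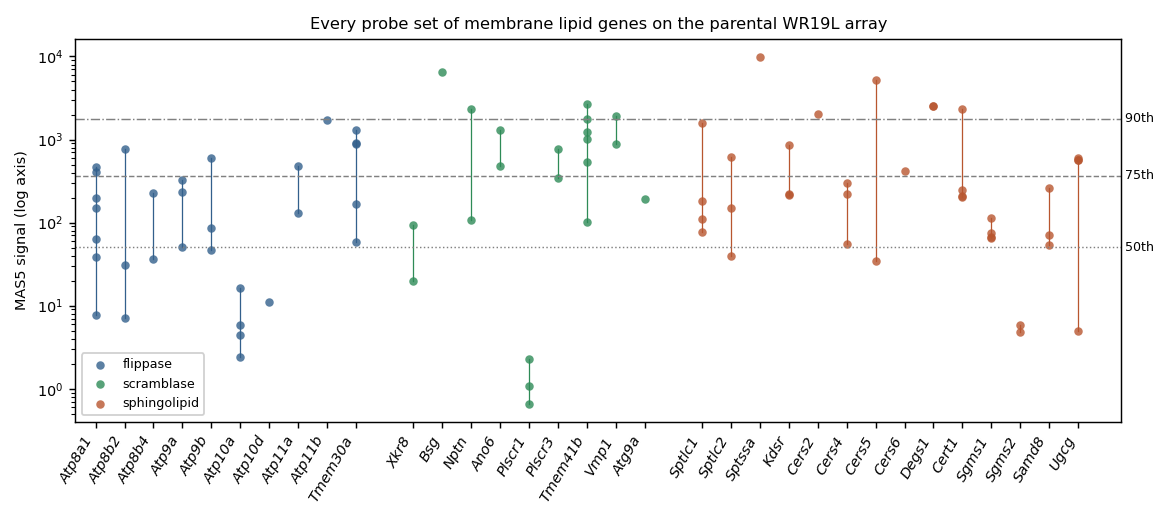
Signal of every probe set with exactly 1 symbol (points, log axis) for 33 flippase, scramblase and sphingolipid genes on the parental array, joined by a line within a gene, with the signals at the 50th, 75th and 90th percentiles as horizontal lines. Both probe sets of Ano6 lie above the 75th percentile, all 4 of Sgms1 lie between the 50th and the 75th, and all of Atp10a and Plscr1 lie below the 50th.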

How the data were processed

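The deposited values are intensity on a linear scale, 1 signal for each probe set, which per the submitters' processing notes the authors obtained with MAS5. Not given in the sources used here were the MAS5 version, the genome build and how the array was scanned. Per the labels' protocols, biotin-labelled cRNA was prepared from 250 ng of RNA by a kit for 3' in vitro transcription, which reads the 3' ends of transcripts. The signals had a trimmed mean of 500, leaving out 2% at each end, so the array had been scaled as a whole, and that scaling was kept. Detection calls were not used here.

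Symbols came from the platform's annotation of 2016. Of the probe sets 932 had several symbols and 9211 had none in that table, and neither were used for genes, though all 45101 set the percentiles. Of the 10143 probe sets left out, 9.01% lay at or above the 75th percentile. RefSeq of GRCm38.p6 matched 34754 named probe sets by Entrez identifier, and a RefSeq promoter matched 14369 of the 18194 genes.

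Percentiles, classes and list counts were computed with Python 3.11.15 and pandas 2.3.3, and figures with matplotlib 3.10.9. Any gene of the 40 lists could be named with its own values, the highest 3 and the lowest 2 of each list first, with the 15 brightest genes of the array and up to 5 of each symbol family. Members and lists were chosen with earlier results of these data known. On simulated data, in which the levels of 200 genes were set, the steps recovered the signal and percentile of 200. The probe sets of each such gene were set close together there. The check therefore covers the computing steps and not how well a probe set reads its gene. As alternatives a gene was represented by its median or its dimmest probe set, probe sets of less specific design or controls were left out, or percentiles were taken among the named probe sets. The number of arrays limits the precision: with 1 array there is no replicate, and only the spread between probe sets of a gene was available.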

Additional observations from a re-analysis of the deposited data

How the results depend on the processing

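No paired analysis was possible because each group of the series has 1 array. With the median or the dimmest probe set in place of the brightest, 4267 or 3358 genes lay at or above the 75th percentile in place of 6605, and 1493 or 1210 at or above the 90th in place of 2795. Fewer probe sets near the top are counted by construction. Of the 186 named genes that were high, 139 stayed high by the median and 113 by the dimmest probe set, and of 148 with a probe set left after the less specific designs were dropped, 129 did. No named gene could become high under these 3 settings, because each takes a probe set no brighter than the one first used. The share of high genes stayed above that of all genes in 21, 23, 20 and 22 of the 23 lists by the median, without the less specific, among the named and by the dimmest probe sets. Under these settings, in the same order, 23.5%, 31.9%, 31.9% and 18.5% of all genes were high. In the counts that follow, each total is the number of genes high by the brightest probe set, not the list size. By median and dimmest probe set, in that order, the number of high genes was 8 and 8 of 14 for T cell receptor signalling, 1 and 1 of 2 for T cell effector genes, 7 and 5 of 13 for haematopoietic genes, 1 and 1 of 3 for effector and helper factors, 11 and 10 of 18 for oncogenes, 6 and 5 of 11 for homing receptors, 5 and 3 of 9 for cytokine receptors, 9 and 6 of 16 for apoptosis, 8 and 7 of 13 for antigen presentation, 2 and 1 of 6 for flippases, 5 and 5 of 10 for sphingolipid synthesis, 1 and 0 of 2 for glycosphingolipids, 4 and 4 of 10 for sphingolipid breakdown, 4 and 4 of 8 for phosphatidylcholine, 7 and 5 of 15 for phosphoinositides and 4 and 4 of 7 for cholesterol transport. By the dimmest alone it was 3 of 5 for thymocyte genes, 10 of 21 for T lineage factors, 15 of 25 for the cell cycle, 13 of 24 for the citric acid cycle, 17 of 27 for nucleotides, 3 of 6 for scramblases, 2 of 6 for phosphatidylethanolamine and phosphatidylserine, 9 of 19 for cholesterol synthesis and 9 of 17 for fatty acids. Without the less specific probe sets it was 1 for T cell effector genes, 0 for genes of other tissues, 8 for haematopoietic genes, 1 for other lineage factors, 7 for antigen presentation, 9 for glycolysis, 1 for glycosphingolipids, 4 for phosphatidylcholine and 3 for phosphatidylethanolamine and phosphatidylserine, where 46 of the 285 named genes had no probe set left. Among the named probe sets it was 3 for thymocyte genes, 0 for genes of other tissues, 1 for other lineage factors, 4 for sphingolipid breakdown and 4 for cholesterol transport.

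The limits of the profile are those of 1 array. The signal is not a transcript number, and a probe set that reads its transcript poorly cannot be told from a transcript that is rare. Signals near those of the genes of other tissues, under the 50th percentile, have no order that can be read. Genes without a probe set of exactly 1 symbol were not analysed here, among them 159 of the 452 probe sets at or above the 99th percentile that have no single gene name.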

Other observations

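Further gene families, taken by the start of the symbol, had shares of high genes below the 36.3% of all genes, except for the ribosomal proteins described above. Of 345 solute carriers 103 (29.9%) were high, and the brightest were mitochondrial carriers: Slc25a3, which imports phosphate (27680, 1 of 2 probe sets high), and Slc25a5 and Slc25a4, which exchange ADP for ATP (8 of 8 and 3 of 4 probe sets high). Of 8 GTPases of the Gimap family, which are known from lymphocyte survival, Gimap1 (88.7) and Gimap9 (85.7) were high. Of 8 interferon regulatory factors Irf3 (91.1) and Irf1 (82.9) were high, and of 6 STAT genes Stat6 (82.8) and Stat3 (77.5). Of 19 Sox genes Sox4 was high, and of 37 forkhead genes 8 were, among them Foxj3, Foxk2, Foxn2 and Foxo1 (85.1 to 92.3). Acsl5, which activates long-chain fatty acids, stood at 96.6 and was the highest of 13 acyl-CoA synthetases.

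A few genes were chosen after their values were seen, because their signals were high. Kcnn4, a calcium-activated potassium channel that activated T cells also use, had probe sets at 5425 and 13712. Gja1, the gap junction protein connexin 43, had 6 probe sets between 300.1 and 4905, of which 5 were high. Ctse, the aspartic protease cathepsin E, had 7298 and 9477. Etv5, an Ets factor, had 1401, 2149 and 6428, and Dusp6, a phosphatase that acts on ERK, had a lone probe set at 5125. Nefh, the heavy neurofilament chain, had 7345, also from a lone probe set, while of the 107 genes of other tissues used as a floor 1 was high. Fabp5, a fatty acid carrier, had 11212 and 26454. Tfrc, the transferrin receptor of dividing cells, was high in 6 of 6 probe sets (543 to 18562).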
